A study of Mus musculus with 6 samples.

Results

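Ribonuclease P and ribonuclease MRP are related ribonucleoprotein enzymes, each built of 1 catalytic RNA and a largely shared set of protein subunits. The members described here are Pop4 and 8 further protein subunits, taken by gene symbol from the deposited count table. Of these 9 genes, 7 were among the 12023 genes of the table: Pop4, Pop1, Pop5, Pop7, Rpp21, Rpp30 and Rpp38. The table used here lists neither Rpp14 nor Rpp40. The set was chosen by the strain difference of Pop4, which was 1 of 18 genes past an adjusted p of 0.05, so that difference is given as a description with no test. The other subunits were listed for their place in the complex, and the question was whether Pop4 stood alone within it.

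The samples were primary cultures of normal mammary fibroblasts from healthy female mice aged 8 to 12 weeks, with 3 biological replicates of BALB/c and 3 of C57BL/6. The cells were isolated from the fat pad with collagenases, in a series on how tumour fibroblasts act on natural killer cells. Both strains were untreated and without an engineered allele in the labels, and both were grown for 4 days before RNA was taken, on plates coated with rat collagen. Cells also went through a magnetic separation, for which the design text gives no target, and the labels do not say whether mice were pooled. Reads from the 3′ ends of polyadenylated RNA were counted per gene, with totals of 1035485 to 4665896 counts per library, so that 3 counts correspond to between 0.612 and 2.90 CPM. CPM are counts scaled to the library total, itself adjusted by TMM, a method that evens out differences in composition.

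Of 10 fibroblast markers, 9 were in the table, Lum being the exception, and their summed level was 4133 to 10783 CPM in BALB/c, against 2342 to 11616 CPM in C57BL/6. The 9 epithelial markers summed to 1615 to 9614 CPM in BALB/c, against 2772 to 15179 CPM in C57BL/6, so the cultures held epithelial RNA in both strains. C57BL/6 replicate 1 had the lowest fibroblast sum, 2342 CPM, and the highest epithelial sum, 15179 CPM. In C57BL/6 replicate 2 these sums were 11616 and 2772 CPM. In BALB/c they were 10783 and 1615 CPM in replicate 1, against 4133 and 9614 CPM in replicate 2. C57BL/6 replicate 1 stood apart from the other libraries, with a mean correlation of 0.779 with them against 0.870 to 0.910 for the others. Log2 differences that moved by more than 1.5 times without this library are given both ways below, except those of cell type markers. Since these are bulk samples, fewer cells of a type and less RNA per cell cannot be told apart.

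Ribonuclease P removes the 5′ leader of precursor transfer RNAs, and ribonuclease MRP cleaves precursor ribosomal RNA. Pop1 is the largest protein subunit and holds much of the particle together. Pop5 and Rpp30 form a pair next to the catalytic core, and in archaeal and human ribonuclease P the protein of Pop4, also called Rpp29, pairs with Rpp21. Pop7 pairs with Rpp25, and Rpp38 binds a kink-turn in the RNA.

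Pop4 lies on the minus strand of chromosome 7, 38261996 to 38271423 on GRCm38, in 6 blocks of exons. Its exons share 12 bases with the antisense gene Gm44767, which the table does not list. The last 500 nt of its longest transcript had 0 near-identical copies among the annotated transcripts (95% identity over 60 nt or more), and the same held for the other 8 listed subunits. The promoter of Pop4 is shown because it was the only one of the 7 promoters searched, those of Pop4, Pop5, Pop7, Rpp14, Rpp30, Rpp38 and Rpp40, that held a cAMP response element, TGACGTCA. Those of Pop1 and Rpp21 were not searched. It is the RefSeq sequence of GRCm38.p6 at chr7:38271299-38271598, minus strand, 250 bases before to 50 after the start, with the element in capitals.
Pop4: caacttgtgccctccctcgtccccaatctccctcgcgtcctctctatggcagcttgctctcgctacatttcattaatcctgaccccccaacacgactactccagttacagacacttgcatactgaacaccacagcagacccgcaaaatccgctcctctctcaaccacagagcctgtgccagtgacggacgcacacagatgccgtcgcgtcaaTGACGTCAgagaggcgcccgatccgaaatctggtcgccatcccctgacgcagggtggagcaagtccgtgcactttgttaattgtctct
This element begins 38 bases before the RefSeq start and reads the same on both strands. It lies inside the GENCODE span of Pop4 given above, beginning 37 bases after its first base, so that by the outermost GENCODE start it is downstream. The same letters were found in 1.79% of 32851 mouse promoters of the same length. A CCAAT box, CCAAT searched on both strands, was also found among the 7 promoters in that of Pop4 alone, and in 37.4% of all promoters. A GC box, GGGCGG on either strand, was in 4 of the 7, those of Pop5, Pop7, Rpp14 and Rpp40, and in 35.7% of all. An E-box, CACGTG, was in the promoter of Rpp38 and in 7.15% of all. Of the 7 promoters, 0 held an ETS core, a TATA box or the NRF1 element, searched on both strands, the first as CCGGAAG and the second as TATAAA, and these were in 8.86%, 13.6% and 0.971% of all promoters. These matches describe the letters of the window and were not tested as binding sites.

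Pop4 had 24, 42 and 19 counts in BALB/c replicates 1, 2 and 3, and 93, 132 and 452 counts in C57BL/6 replicates 1, 2 and 3. Scaled to library size this was 16.01, 15.03 and 18.4 CPM in BALB/c against 71.0, 103 and 92.2 CPM in C57BL/6. All 3 BALB/c libraries were low and all 3 C57BL/6 libraries were high, with no overlap. The mean was 16.5 ± 1.73 CPM in the BALB/c libraries and 88.8 ± 16.3 CPM in C57BL/6 (n = 3 each, SD). The log2 difference, BALB/c minus C57BL/6, was -2.44 ± 0.29 (standard error of edgeR's fit), and it was this difference that chose the gene. It lay between -2.58 and -2.28 in 16 other settings. The value of -2.28 came from the counts of another row, named Adamts4, and the highest of the rest was -2.31. The threshold that chose Pop4 was met in 7 of the 16 settings, which describes how far the choice depends on the processing and tests nothing. Without C57BL/6 replicate 1 the difference was -2.58 ± 0.22, and Pop4 would still have been chosen. Leaving out any 1 of the other 5 libraries gave -2.52 to -2.31, and it would not. These values hold for the row named Pop4, which is 1 of 66 rows out of alphabetical order in the table, as described at the end.

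The summed level of 6 markers of pericytes and smooth muscle, all in the table, was 446 to 585 CPM in BALB/c, against 723 to 891 CPM in C57BL/6, with no overlap. That gap came with Cnn1, a smooth muscle calponin, which had 261, 431 and 218 counts in BALB/c and 649, 553 and 1742 counts in C57BL/6. The row of Cnn1 is another of the 66 out of alphabetical order. Without Cnn1, left out after the values were seen, the other 5 markers summed to 292 to 375 CPM in BALB/c, against 228 to 459 CPM in C57BL/6, and overlapped. Of the 5 tested markers 0 passed the threshold, with log2 differences from -1.25 for Cnn1 to 0.07 for Mcam. Rgs5, a pericyte marker below the count filter, had 3, 2 and 0 counts in BALB/c and 1, 4 and 26 counts in C57BL/6. The part of these cells in the level of Pop4 was not tested. The summed markers of macrophages and leukocytes, at 497 to 686 CPM in BALB/c and 587 to 971 CPM in C57BL/6, overlapped between the strains, as did those of endothelium. The 5 tested macrophage and leukocyte markers were all lower in BALB/c, and 0 passed the threshold. Their log2 differences were -0.92 ± 0.45 for Csf1r, -0.91 ± 0.30 for Cd68, -0.90 ± 0.46 for Tyrobp, -0.36 ± 0.30 for Lyz2 and -0.04 ± 0.54 for Cd14. The part of macrophages in the level of Pop4 was not tested.

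**Figure D1:**
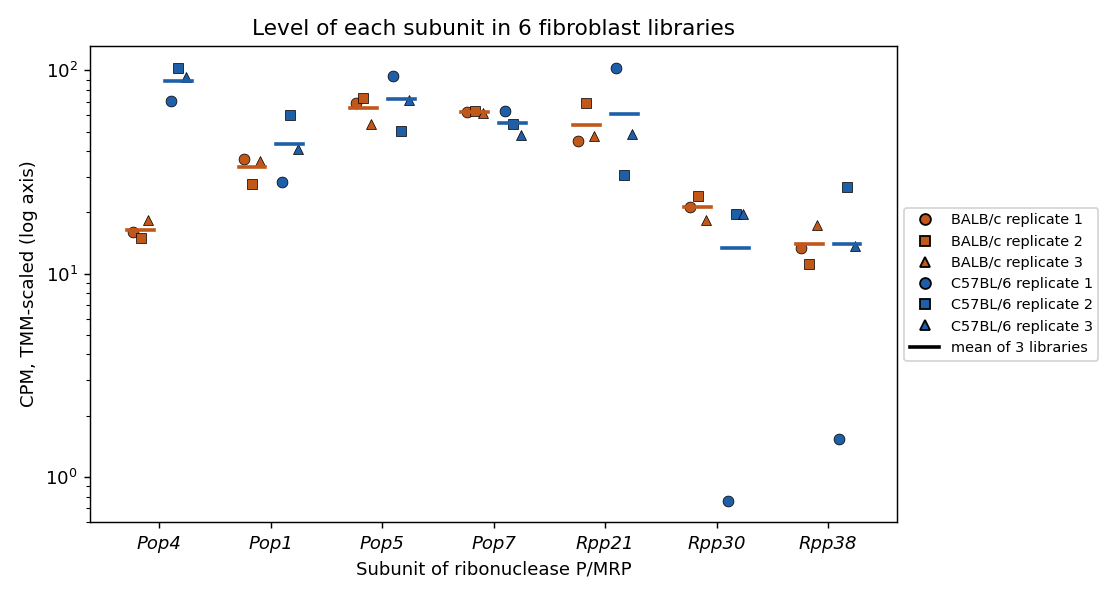
CPM on a log axis of the 7 subunits found in the table, with a point for each library, BALB/c left of C57BL/6, and a line at the mean of 3 libraries. Pop4 is the subunit whose strains do not overlap, and Rpp30 and Rpp38 are low in C57BL/6 replicate 1, at 0.764 and 1.53 CPM.

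The other subunits showed no strain difference past the threshold. Of the 6 tested, 0 passed in the quasi-likelihood test of edgeR, adjusted by Benjamini-Hochberg over 8752 genes, where 0.206% of all tested genes did. Of the 6, 0 had an unadjusted p under 0.05, beside 3.86% of all tested genes. The other tools also called 0 of the 6 past the threshold. DESeq2 called 0.811% of all tested genes, limma-voom 0.0343% and limma-voom with library quality weights 0.651%. With those weights 1 of the 6 had an unadjusted p under 0.05, as did 1050 of the 8752 tested genes. In all 6 the libraries of the strains overlapped, whereas 11.4% of all tested genes did not overlap in either direction. The median log2 difference of the 6 was -0.07, beside 0.01 for all tested genes. It was 0.10 without C57BL/6 replicate 1. The 7 genes lie on 6 chromosomes, with Pop5 and Pop7 both on chromosome 5.

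Pop1, the scaffold subunit (GRCm38 chr15:34495304-34530648, plus strand), had 36.7, 27.6 and 35.8 CPM in BALB/c replicates 1, 2 and 3 and 28.3, 60.2 and 41.2 CPM in C57BL/6 replicates 1, 2 and 3. C57BL/6 replicate 1 lay within the BALB/c range and the other C57BL/6 libraries above it. Its log2 difference was -0.38 ± 0.35 (edgeR adjusted p = 0.954), the lowest of the 6, and without C57BL/6 replicate 1 it was -0.61 ± 0.27.

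Rpp21, the partner of the Pop4 protein (chr17:36255645-36258069, minus strand), had 44.7, 69.4 and 47.4 CPM in BALB/c, against 103, 30.5 and 48.6 CPM in C57BL/6. C57BL/6 libraries gave both the highest and the lowest value. The log2 difference was -0.16 ± 0.47 (edgeR adjusted p = 0.967), and 0.42 ± 0.32 without C57BL/6 replicate 1, with the sign turned round. There were 0.216 to 0.388 Pop4 counts per Rpp21 count in BALB/c and 0.689 to 3.38 in C57BL/6.

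Pop5 (chr5:115235836-115245351, plus strand) had 68.7, 73.0 and 54.2 CPM in BALB/c, against 94.0, 50.02 and 71.8 CPM in C57BL/6. The strains overlapped, and the log2 difference was -0.14 ± 0.30 (edgeR adjusted p = 0.958), or 0.082 ± 0.25 without C57BL/6 replicate 1. Pop7 (chr5:137501438-137502518, minus strand) was the steadiest subunit by range within BALB/c, with 62.7, 63.0 and 61.9 CPM there and 63.4, 54.7 and 48.0 CPM in C57BL/6. For Pop7 the log2 difference was 0.18 ± 0.24 (edgeR adjusted p = 0.954), or 0.28 ± 0.20 without C57BL/6 replicate 1. A standard error of 0.24 to 0.35, as for Pop7, Pop5 and Pop1, is well under the size of the difference measured for Pop4. The threshold was strict, however. The chemokine Pf4, at -1.87 ± 0.26, did not pass it (edgeR adjusted p = 0.0535). A difference smaller than that of Pop4 in these subunits, or for Pop1 one about as large, could therefore have gone uncalled. The row named Adamts4, at -2.29 ± 0.44, did not pass either (edgeR adjusted p = 0.222). With a standard error of 0.47, a difference of Rpp21 as large as that of Pop4 could thus have gone uncalled too.

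Rpp30, the partner of Pop5 (chr19:36083716-36104777, plus strand), had 21.3, 24.0 and 18.4 CPM in BALB/c, against 0.764, 19.5 and 19.6 CPM in C57BL/6 replicates 1, 2 and 3. The value of C57BL/6 replicate 1 came from 1 count, with an exact 95% counting interval of 0.0193 to 4.26 CPM. The log2 difference was 0.64 ± 0.79 (edgeR adjusted p = 0.954) with all libraries and 0.12 ± 0.28 without that one. Rpp38, the RNA-binding subunit (chr2:3328949-3332643, minus strand), had 13.3, 11.1 and 17.4 CPM in BALB/c, against 1.53, 26.6 and 13.7 CPM in C57BL/6. Again C57BL/6 replicate 1 was low, with 2 counts. Its log2 difference was -0.01 ± 0.78 (edgeR adjusted p = 0.998), which became positive with upper quartile scaling or library totals alone, and -0.51 ± 0.41 without C57BL/6 replicate 1. With standard errors of 0.79 and 0.78, a 2-fold difference of Rpp30 or Rpp38 could not be told from none. A difference of either gene as large as that of Pop4 could also have gone uncalled.

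Both genes lay at least 4-fold below the other C57BL/6 libraries in C57BL/6 replicate 1, as did 15% of all tested genes. The longest coding transcripts of Rpp30 and Rpp38 had a GC content of 39.7% and 46.1%, against 49.6% for Pop4 and 51.0% to 57.4% for Pop1, Pop5, Pop7 and Rpp21. Over the 8650 tested genes with a transcript the median was 51.7%, and 45.004% for those that low in this library. The part of GC content in these low values was not tested, nor was that of the cell types in this culture, which had the highest epithelial sum. Pop4 was the lowest of its strain in that library too, at 71.0 CPM from 93 counts.

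**Figure D2:**
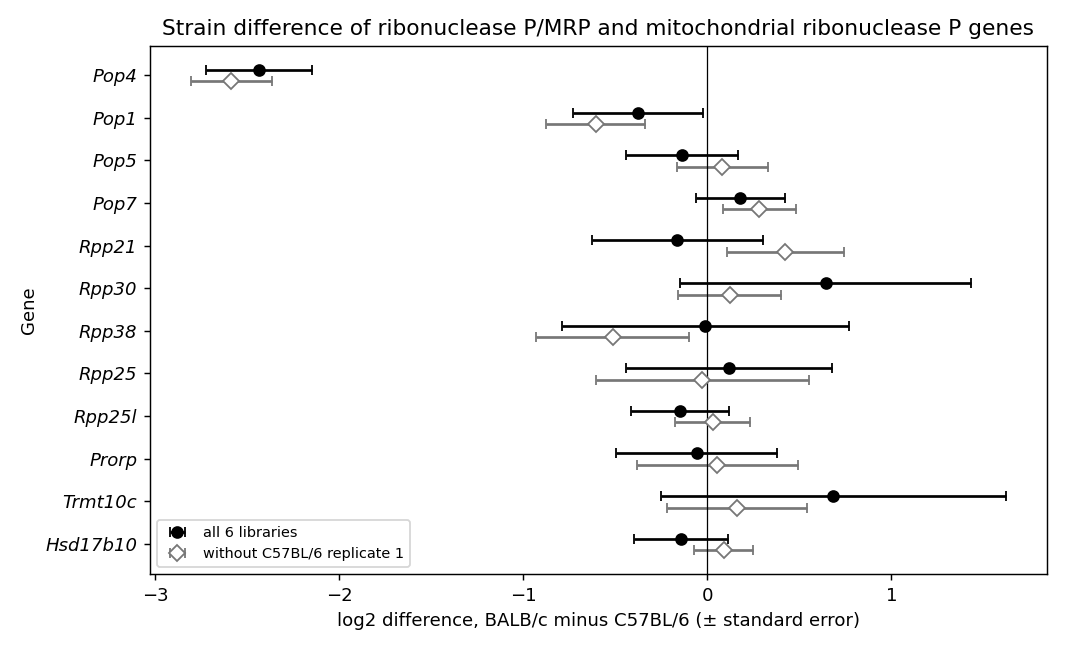
Strain difference (log2, BALB/c minus C57BL/6) and its standard error for 7 subunits in the table, the further subunits Rpp25 and Rpp25l, and the 3 proteins of mitochondrial ribonuclease P, with all 6 libraries (filled) and without C57BL/6 replicate 1 (open). Pop4 lies at -2.44 and the other genes shown between -0.38 and 0.69 with all libraries.

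Within a library the ratio of Pop4 to the other subunits does not depend on scaling. Pop4 made up 6.08%, 5.31% and 7.25% of the summed counts of the 7 subunits in BALB/c replicates 1, 2 and 3, against 19.6%, 29.9% and 27.5% in C57BL/6 replicates 1, 2 and 3. The exact 95% binomial intervals, which cover counting error only, reached up to 11.1% in BALB/c and down to 16.1% in C57BL/6, so they did not meet. The mean share was 6.21% ± 0.978 in BALB/c and 25.7% ± 5.40 in C57BL/6 (SD, n = 3 each). The other 6 subunits together had 250.2 ± 16.6 CPM in BALB/c, against 258 ± 28.2 CPM in C57BL/6. Their sum thus differed by less than the spread between replicates. Taken against each of the 6 subunits in turn, the ratio of Pop4 counts did not overlap between strains in 6 of 6. The ratio to Pop7, for example, was 0.239 to 0.297 in BALB/c and 1.12 to 1.92 in C57BL/6. Since Pop4 was chosen for its difference, these ratios are a description, and the difference between its change and that of the other subunits was not tested.

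**Figure D3:**
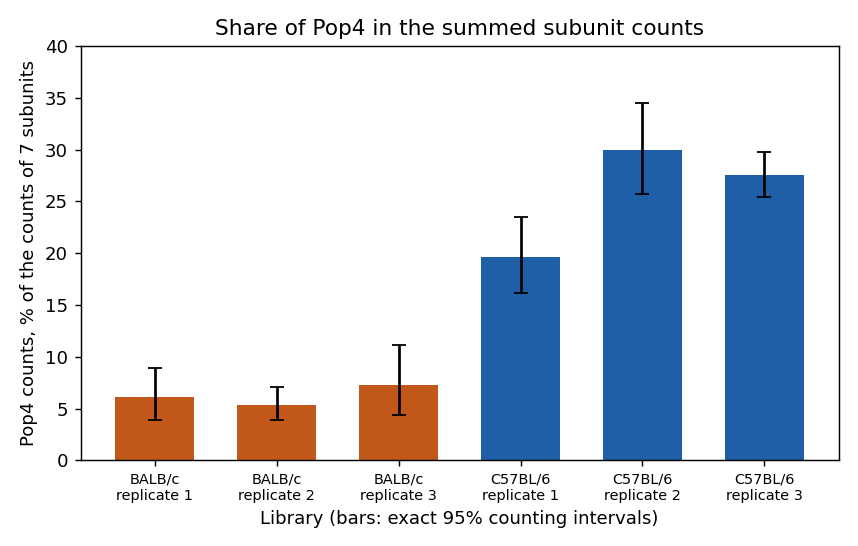
Pop4 counts as a percentage of the summed counts of the 7 subunits in each library, with exact 95% counting intervals. The 3 BALB/c bars lie at 5.31% to 7.25% and the 3 C57BL/6 bars at 19.6% to 29.9%.

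Among further protein subunits of the complex, 0 of 2 passed the threshold. Rpp25, which pairs with Pop7, had 16.8 ± 10.7 CPM in the BALB/c libraries and 15.3 ± 3.80 CPM in C57BL/6 (n = 3 each, SD). Its paralog Rpp25l had 58.9 ± 4.15 CPM in the BALB/c libraries and 65.4 ± 14.97 CPM in C57BL/6 (n = 3 each, SD). Their log2 differences were 0.12 ± 0.56 and -0.15 ± 0.27, with edgeR adjusted p of 0.976 and 0.954, and changed sign to -0.026 and 0.030 without C57BL/6 replicate 1.

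Rpph1, the RNA of ribonuclease P, had 1, 7 and 4 counts in BALB/c replicates 1, 2 and 3 and 86, 7 and 118 counts in C57BL/6 replicates 1, 2 and 3. This was 0.667, 2.51 and 3.87 CPM in BALB/c against 65.7, 5.47 and 24.1 CPM in C57BL/6. All BALB/c libraries were low, and C57BL/6 replicate 2 was close to them, since its counting interval of 2.20 to 11.3 CPM reached those of all 3 BALB/c libraries. Of the 211 counts in C57BL/6, 86 came from replicate 1, and 125 remain without it. The gene fell below the count filter and was not among the 8752 tested. With no filter its log2 difference was -3.78 ± 0.96 (edgeR adjusted p = 0.549), not past the threshold, which 0.15% of the 12023 genes passed in that fit. Rpph1 is made by RNA polymerase III and normally lacks the poly(A) tail on which these libraries rely, and the part of this in its counts was not tested. It lies on the minus strand of chromosome 14, 50807449 to 50807767 on GRCm38, and shares 233 exon bases with Ccnb1ip1 on the same strand, which makes its counts uncertain. The table does not list Rmrp, the RNA of ribonuclease MRP.

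Mitochondria of mammals use a separate ribonuclease P made of protein alone, and its 3 genes showed no difference past the threshold. Prorp, the nuclease, had 16.4 ± 5.07 CPM in the BALB/c libraries and 17.1 ± 5.98 CPM in C57BL/6 (n = 3 each, SD), a log2 difference of -0.06 ± 0.44 (edgeR adjusted p = 0.988). Its exons share 243 bases with Ppp2r3c on the opposite strand. Hsd17b10, a dehydrogenase that serves as a subunit, had 144 ± 3.14 CPM in the BALB/c libraries and 159 ± 42.8 CPM in C57BL/6 (n = 3 each, SD), a log2 difference of -0.14 ± 0.25 (edgeR adjusted p = 0.954). Trmt10c, the transfer RNA methyltransferase subunit, had 22, 65 and 16 counts in BALB/c replicates 1, 2 and 3 and 0, 26 and 63 counts in C57BL/6 replicates 1, 2 and 3. The log2 difference of Trmt10c was 0.69 ± 0.94 (edgeR adjusted p = 0.954), and 0.16 ± 0.38 without C57BL/6 replicate 1, where it had 0 counts, which allows up to 2.29 CPM. Without that library Prorp had 0.056 and Hsd17b10 0.089 on the log2 scale, both changed in sign.

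Genes of the steps before and after ribonuclease P and MRP were taken from 7 lists, those of mitochondrial ribonuclease P, transfer RNA 3′ ends, transfer RNA splicing, RNA polymerase III, snoRNP proteins, ribosomal RNA processing and the RNA exosome. Of their 94 genes 88 were in the table and 77 were tested, and 0 passed in edgeR, where 0.206% of all tested genes did. In DESeq2 and limma-voom, which called 0.811% and 0.0343% of all tested genes, 0 passed too. With quality weights 1 passed, where 0.651% of all tested genes did. In edgeR 2 of the 77 had an unadjusted p under 0.05, against 3.86% of all tested genes. The median log2 difference of the 77 was 0.05, with values from -0.80 for Nop56, a core protein of box C/D snoRNPs, to 0.88 for the exosome subunit Exosc9.

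Polr1d, a subunit shared by RNA polymerases I and III, had 187 ± 4.47 CPM in the BALB/c libraries and 319 ± 62.1 CPM in C57BL/6 (n = 3 each, SD). Its log2 difference was -0.77 ± 0.24 (edgeR adjusted p = 0.935). It passed in limma-voom with library quality weights alone (adjusted p = 0.0242), where 0.651% of all tested genes did. Polr1c, the other most abundant gene of that list of 17 tested genes, showed -0.12 ± 0.23 on the log2 scale (adjusted p of edgeR 0.954). The median of that list was -0.12.

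Of 5 tested genes of transfer RNA 3′ ends, Rexo2, an oligoribonuclease, had a log2 difference of 0.45 ± 0.45 and Ssb, the La protein, 0.20 ± 0.55, and the list's median was 0.21. Among 10 transfer RNA splicing genes the ligase Rtcb had -0.25 ± 0.22 and the endonuclease subunit Tsen34 -0.38 ± 0.22, with a median of 0.19. The edgeR adjusted p of these 4 genes were 0.954 to 0.965. Without C57BL/6 replicate 1 the log2 difference of Rexo2 was 0.057 ± 0.18, that of Ssb -0.25 ± 0.21 and that of Rtcb -0.15 ± 0.16.

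Nhp2, of H/ACA snoRNPs, had a log2 difference of -0.04 ± 0.32 and Snu13, of box C/D snoRNPs, 0.20 ± 0.21, with a median of -0.03 over 9 genes. Among 20 genes of ribosomal RNA processing the median was 0.05, and Rrp1, a nucleolar assembly factor, had -0.07 ± 0.22. Npm1, a nucleolar chaperone, had 0.09 ± 1.25, as its counts spread from 139 to 1234 within BALB/c and from 21 to 2239 within C57BL/6. Of 13 exosome genes the median was 0.24, with -0.33 ± 0.31 for Exosc4 and 0.03 ± 0.28 for Exosc5. Without C57BL/6 replicate 1 Nhp2 had a log2 difference of 0.34 ± 0.17, Npm1 -0.50 ± 0.94, Exosc4 -0.14 ± 0.27 and Exosc5 0.18 ± 0.23.

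**Figure D4:**
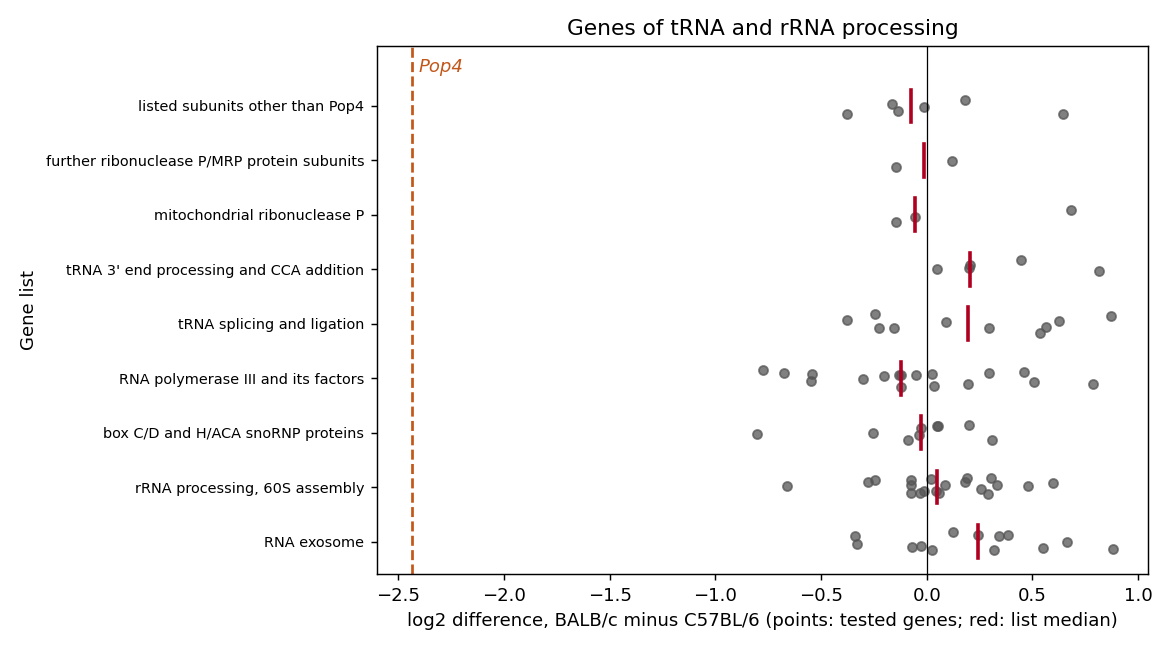
log2 difference, BALB/c minus C57BL/6, of the tested genes of each list (points) with the list's median (line), and a dashed line at Pop4. The listed genes lie between -0.80 and 0.88, and Pop4 at -2.44.

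The tested genes nearest to Pop4 on chromosome 7 did not pass the threshold. Plekhf1, 34.0 kb away, had 61.4 ± 17.9 CPM in the BALB/c libraries and 69.4 ± 17.3 CPM in C57BL/6 (n = 3 each, SD), a log2 difference of -0.18 ± 0.32. The log2 difference of 1600014C10Rik, at 64.4 kb, was -0.42 ± 0.35. That of the cyclin gene Ccne1, at 154.5 kb, was -0.36 ± 0.31. Each had an edgeR adjusted p of 0.954, and their strains overlapped. On the other side the nearest tested gene, AI987944, was 3101.5 kb away, with -0.23 ± 0.58. Siglecg, a sialic acid receptor, and Etfb, of the electron transfer flavoprotein, followed at 5136.8 and 5172.7 kb, with -0.65 ± 0.39 and -0.10 ± 0.31. The edgeR adjusted p of these 3 were 0.954 to 0.967. Of the 6 neighbours, the strains did not overlap in 1, Siglecg, where 11.4% of all tested genes did not overlap. Without C57BL/6 replicate 1 the log2 difference of Plekhf1 was 0.039, that of Ccne1 -0.10, that of AI987944 -0.60 and that of Etfb 0.11.

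The genes most like Pop4 were sought among 4452 tested genes whose mean log2 CPM reached 5, by Pearson's r of log2 CPM over the 6 libraries, which share their depth and strain with those of Pop4. These were Tpi1, a glycolytic enzyme, with r of 0.985, the ribosomal protein gene Rpl29 with 0.981, the noncoding host gene Snhg6 with 0.980, Plpp1, a lipid phosphatase, with 0.978, and the chemokine Pf4 with 0.978. Tpi1 had 617 to 669 CPM in BALB/c, against 838 to 900.1 CPM in C57BL/6, a much smaller step between strains than Pop4, with a log2 difference of -0.43 ± 0.20. Snhg6 had 56.1 to 67.4 CPM in BALB/c, against 185 to 284 CPM in C57BL/6. Among the subunits r with Pop4 was 0.54 for Pop1, 0.03 for Pop5, -0.69 for Pop7, -0.12 for Rpp21, -0.37 for Rpp30 and -0.11 for Rpp38, and 6 libraries leave these imprecise.

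The place of the Pop4 row in the deposited table bears on how its value can be read. The table is in alphabetical order except for 66 of 12023 rows, which stand at each other's places, and Pop4 is 1 of them, between Ccl25 and Ccl3. Rpph1 is another, as are Rpl29, Snhg6, Plpp1 and Pf4, while the other 6 tested subunits stand at their own places. Of the 18 genes past the threshold 17 were among the 66 rows. In 65 of the 66 the strains did not overlap, beside 11.4% of all tested genes. In the order of the table the unadjusted p of these rows grew, with a Spearman's rho of 0.937 across the 66 genes, which are not independent replicates. Pop4 was the 12th and Rpph1 the 52nd of them. The place of Pop4 in the alphabet holds the row named Adamts4, with 15, 23 and 8 counts in BALB/c and 29, 73 and 235 counts in C57BL/6. If those were the counts of Pop4, its log2 difference would be -2.28 ± 0.44. The row named Hspa8, an abundant chaperone, stands at the place of Rpph1 and held 796 ± 233 CPM in the BALB/c libraries and 2519 ± 736 CPM in C57BL/6 (n = 3 each, SD). Whether each moved symbol still stands beside its own counts was not tested beyond these values.

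**Figure D5:**
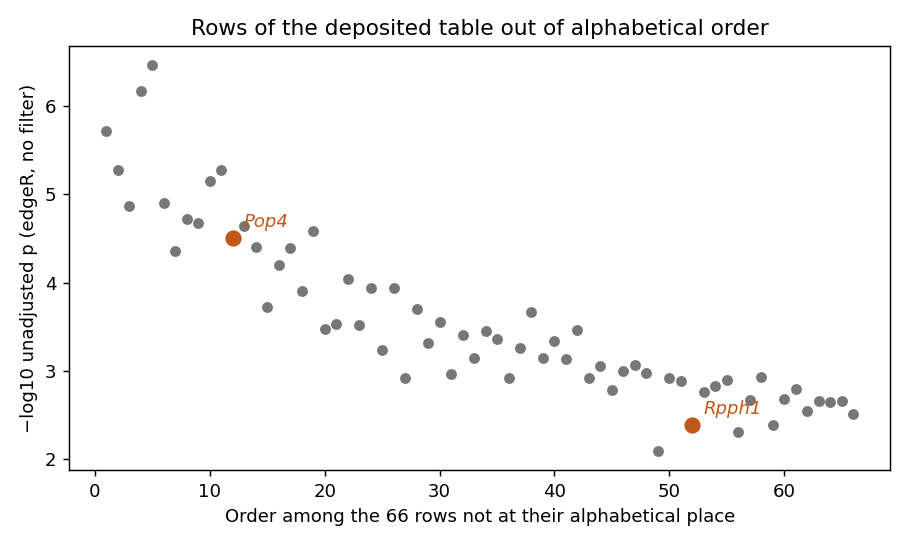
−log10 of the unadjusted p (edgeR, no filter on low counts) of the 66 rows that are not at their alphabetical place, in the order in which they stand in the table. The values fall along the table, with a Spearman's rho of 0.937 for p itself, and Pop4 and Rpph1 are marked.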

How the data were processed

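Raw counts per gene symbol in 6 libraries were deposited by the authors as 1 table. The tools were HTSeq, STAR 2.4.2a and bcl2fastq on mouse build mm10, per the submitters' processing notes, with settings, annotation, strand and treatment of molecular identifiers not given in the sources used here. Each listed gene reaches at least 6 counts in some library. The genome is of C57BL/6, so BALB/c reads with other alleles may align less well. Columns were matched to samples by library name. P-values weigh the strain difference against the spread between the 3 libraries of each strain, which the fits draw toward that of other genes. Whether that spread is between single mice or pools is not given in the labels.

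The strains were compared with edgeR 4.0.16 (R 4.3.3): filterByExpr by strain (8752 genes), TMM factors of 0.866 to 1.06, a robust quasi-likelihood fit with strain as the only term, two-sided, with Benjamini-Hochberg adjustment over all tested genes at 0.05. The standard error is the log2 difference divided by the square root of F. Scaling, filters, DESeq2 1.42.0, limma 3.58.1 (voom, with and without quality weights), a replicate block and leaving out each library were tried. The fit was tested on simulated data. Log2 CPM for correlations used a prior count of 2.

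Named were every subunit in the table, the further subunits, both RNAs and mitochondrial ribonuclease P, of each other list the genes past the threshold and the 2 most abundant, up to 3 tested neighbours of Pop4 on each side and the 5 genes most like it. Nop56, Exosc9, Adamts4, Hspa8, Cnn1, Mcam, Rgs5, Csf1r, Cd68, Tyrobp, Lyz2 and Cd14 were named after their values were seen. The members and lists were chosen with earlier results of these data known. Places are from GENCODE M21, promoters from RefSeq GRCm38.p6, and copies were searched with BLAST+ 2.17.0. GRCm38 is the assembly of mm10.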

Additional observations from a re-analysis of the deposited data

How the results depend on the processing

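Of the 16 settings tried, Pop4 kept its direction in all that used the counts of the row named Pop4. It did not keep its side of the threshold that chose it, and these values are a description. It fell short of that threshold with library totals alone (log2 difference -2.37), limma-voom (-2.44), a replicate block (-2.42), the counts at its alphabetical place, an alternative added after seeing the data (-2.28), and with any library but C57BL/6 replicate 1 left out (-2.58 to -2.31 over all 6). Same-numbered libraries had correlations of deviations from their strain means of -0.419, -0.397 and -0.0775. With 3 libraries per strain these deviations constrain each other, so the values cannot settle whether replicate numbers pair the samples. Over all genes 18 calls became 11 with library totals alone, 71 with DESeq2, 3 with limma-voom, 57 with quality weights, 0 with the replicate block (158 genes at an unadjusted p under 0.05) and 0 to 25 with 1 library left out. These were 25 calls without C57BL/6 replicate 1, 4 without BALB/c replicate 1, 5 without C57BL/6 replicate 2, and 0 without BALB/c replicates 2 or 3 or C57BL/6 replicate 3 (205, 226 and 261 genes at an unadjusted p under 0.05). The cause was not tested. The 6 other subunits gave 0 calls in each setting that could test them. A mean of at least 50 counts left Rpp30 and Rpp38 without a value. The related lists gave 0 calls except 1, Polr1d, with quality weights. Pop4's share stayed at 5.69% to 6.66% in BALB/c and 23.6% to 28.7% in C57BL/6 with 1 library left out.

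Genes not past the threshold changed sign as follows, in log2 differences. With limma-voom Rpp21 had 0.045, Rpp38 0.25, Rpp25 -0.24 and Nhp2 0.041. With quality weights Rpp21 had 0.21, Rpp25 -0.22, Hsd17b10 0.087, Ssb -0.071, Nhp2 0.25, Npm1 -0.66, Exosc4 0.11, Plekhf1 0.11 and Etfb 0.29. With upper quartile scaling Rpp38 had 0.027, Prorp 0.011 and Nhp2 0.044, and with library totals alone Rpp38 0.015, Prorp 0.022, Nhp2 0.079 and Etfb 0.0025. With the replicate block Rpp38 had 0.45, Rpp25 -0.046 and Nhp2 0.031, and with a mean of at least 50 counts Nhp2 had 0.040. With 1 library left out Pop5 ranged from -0.32 to 0.082, Rpp21 from -0.45 to 0.42, Rpp38 from -0.51 to 0.73, Rpp25 from -0.50 to 0.52, Rpp25l from -0.26 to 0.030, Hsd17b10 from -0.28 to 0.089, Prorp from -0.32 to 0.15, Ssb from -0.25 to 0.62, Nhp2 from -0.21 to 0.34, Npm1 from -0.68 to 0.90, Exosc5 from -0.18 to 0.18, Plekhf1 from -0.37 to 0.039, AI987944 from -0.60 to 0.21 and Etfb from -0.35 to 0.11. Rpph1, Rpp30, Rpp38 and Trmt10c rest on 0 to 2 counts in 1 library, so counting error limits their values there. For the last 3 this was C57BL/6 replicate 1, whose total of 1521933 was above those of BALB/c replicate 3 and C57BL/6 replicate 2.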

Other observations

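In C57BL/6 replicate 1, a level 4-fold or more below that of both its fellow libraries was found in 15 of the 79 tested genes of the related lists and further subunits, where 15% of all tested genes were. Trmt10c was among the lowest, with 0 counts there.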
